A study of Mus musculus with 32 samples.

Results

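The interferon regulatory factors (IRFs) are the transcription factors that turn pathogen sensing and interferon signals into gene programs, and 8 genes of the family (Irf1, Irf2, Irf3, Irf4, Irf5, Irf7, Irf8 and Irf9) were followed here from a monocyte graft into the colon and ileum of mice. The members were chosen by symbol, and all 8 were found among the 24411 genes of the table of CD11c-DTR recipients and the 24421 genes of the table of CX3CR1-DTR recipients.

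All animals were C57BL/6J. The graft consisted of Ly6C+ CD115+ CD117- GFPint BM monocytes of Cx3cr1 GFP/+ donors that also carried CD45.1, although the labels of these 3 libraries give blood as the organ. Recipients were [CD11c-DTR > wt] BM chimeras, in which the transplanted BM carried the diphtheria toxin receptor under the Itgax (CD11c) promoter. The toxin (DTx), used to ablate intestinal macrophages with this receptor, was given before transfer and every other day afterwards to the engrafted animals. Graft-derived macrophages were isolated by CD45.1 and GFP on days 4, 8 and 12 according to the methods of the study, whereas the labels give DAPI-CD45+CD11b+CD64+Ly6C-MHCII+ as the selection marker, and this gave 3, 3 and 4 libraries for colon and 4, 4 and 4 for ileum. A second type of chimera, with CX3CR1-DTR BM, received DTx in the same way and gave 6 colon libraries of day 14. The list of data sets in the supplement counts fewer repeats for this group, and all deposited libraries were used. Host cells carry CD45.2, which a gate on CD45.1 leaves out. In bulk libraries the reads of any cells of other types that passed the sort cannot be told apart from those of graft-derived cells. The labels do not say that the libraries of a group came from separate animals, so p-values measure only the spread between these libraries.

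IRF1 is induced by interferon-gamma and activates genes of antigen presentation, whereas IRF2 binds the same sites and mostly opposes it. IRF3, IRF5 and IRF7 lie latent in the cytoplasm until Toll-like or nucleic acid sensors trigger their phosphorylation, and IRF9 is the subunit of the complex ISGF3 that binds DNA when interferon receptors signal. IRF4 and IRF8 bind DNA weakly alone and are recruited by partners such as PU.1, with IRF8 best known as a factor of the monocyte lineage and IRF4 as a factor of plasma cells and of some dendritic cells and macrophages.

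Levels are given as normalized reads, which are reads per 10000000 mapped reads of a library, and they are compared between groups for a gene and not between genes. Between 591817 and 5228664 reads were counted on genes in the 25 libraries of the graft and the CD11c-DTR recipients, with a median of 2447862, and between 1223772 and 4218027 in the CX3CR1-DTR libraries. A gene was called where edgeR's quasi-likelihood test gave a Benjamini-Hochberg adjusted p under 0.05 over all genes tested, and log2 fold changes are given ± standard error. The leukocyte content of the libraries differed strongly. Reads of 12 pan-leukocyte marker genes summed to 171754 to 185139 per 10000000 reads on genes in the graft, to 3862 to 16719 in the CD11c-DTR colon, to 11969 to 85195 in the ileum and to 3036 to 8899 in the CX3CR1-DTR colon. Reads of 12 epithelial marker genes summed to 52.2 to 85.8 in the graft and to 174259 to 259939, 32166 to 226810 and 193839 to 251714 in the same order of engrafted tissues. In the graft 4 of the 12 epithelial genes (Krt20, Vil1, Cldn3 and Tspan8) were at 0 in every library, and in the gut each was present. Of 10 tested macrophage markers, 7, 6 and 5 fell in colon on days 4, 8 and 12, with medians of -2.27, -1.67 and -1.34, and 3, 2 and 2 fell in ileum, with medians of -0.49, 0.13 and 0.40. The 3 that rose, C1qa, C1qb and C1qc, which encode complement C1q, did so in both tissues on every day, by 6.39 to 9.91 on the log2 scale, while Mertk was at 0 in every graft library. For a fall in a bulk library, fewer cells of a type and less RNA per cell cannot be told apart.

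**Figure D1:**
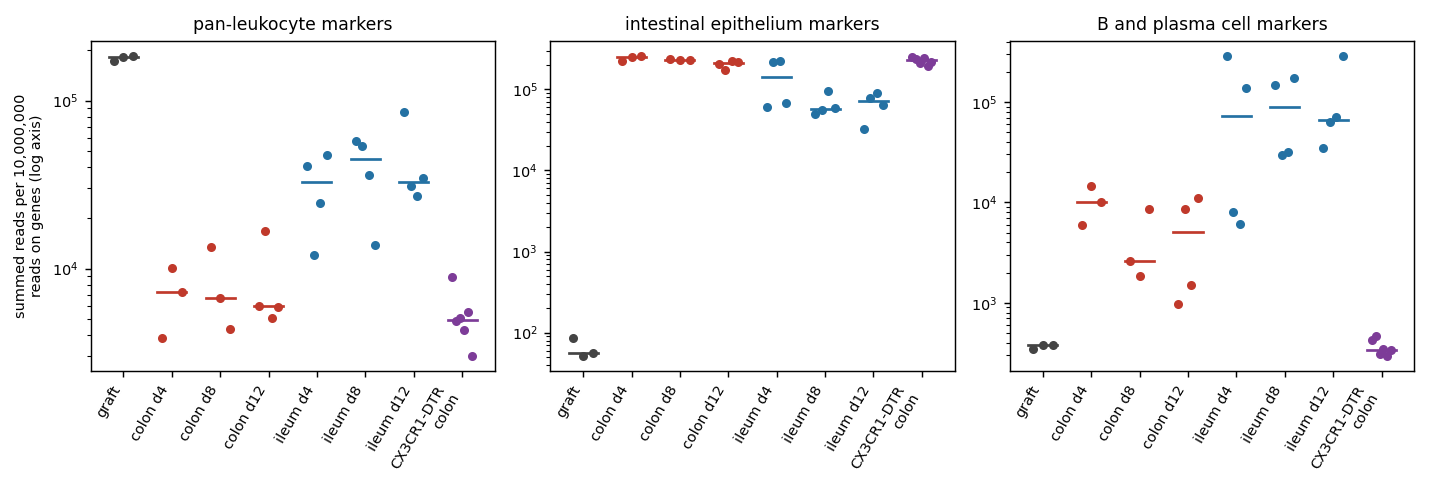
Summed reads of 3 marker lists per 10,000,000 reads on genes (log axis) in each library of the graft, the colon and ileum of CD11c-DTR recipients and the CX3CR1-DTR colon. Each point is a library and each line a group's median. The pan-leukocyte sums of all engrafted libraries lie below the 3 graft libraries, the epithelial sums lie above them, and the B and plasma cell sums are highest in the ileum.

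From the graft to the colon, 5 of the 8 members fell by day 4 (Irf4, Irf5, Irf7, Irf8 and Irf9) and none rose, and the same 5 were lower on days 8 and 12. Among all genes tested, 24.5%, 23.9% and 24.9% were called lower on days 4, 8 and 12. The median log2 fold change of the 8 members was -2.44, -2.33 and -2.42 on these days, against 0.21, 0.22 and 0.24 over all 11842 genes. In the ileum 5 members fell on each day (Irf2, Irf5, Irf7, Irf8 and Irf9) and Irf1 rose, where 20.5%, 19.5% and 20% of all genes were called lower and 36.2%, 34.3% and 35.9% higher. The medians of the members were -1.26, -1.07 and -0.97, against 0.23, 0.20 and 0.22 over all genes. The comparisons share the 3 graft libraries.

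**Figure D2:**
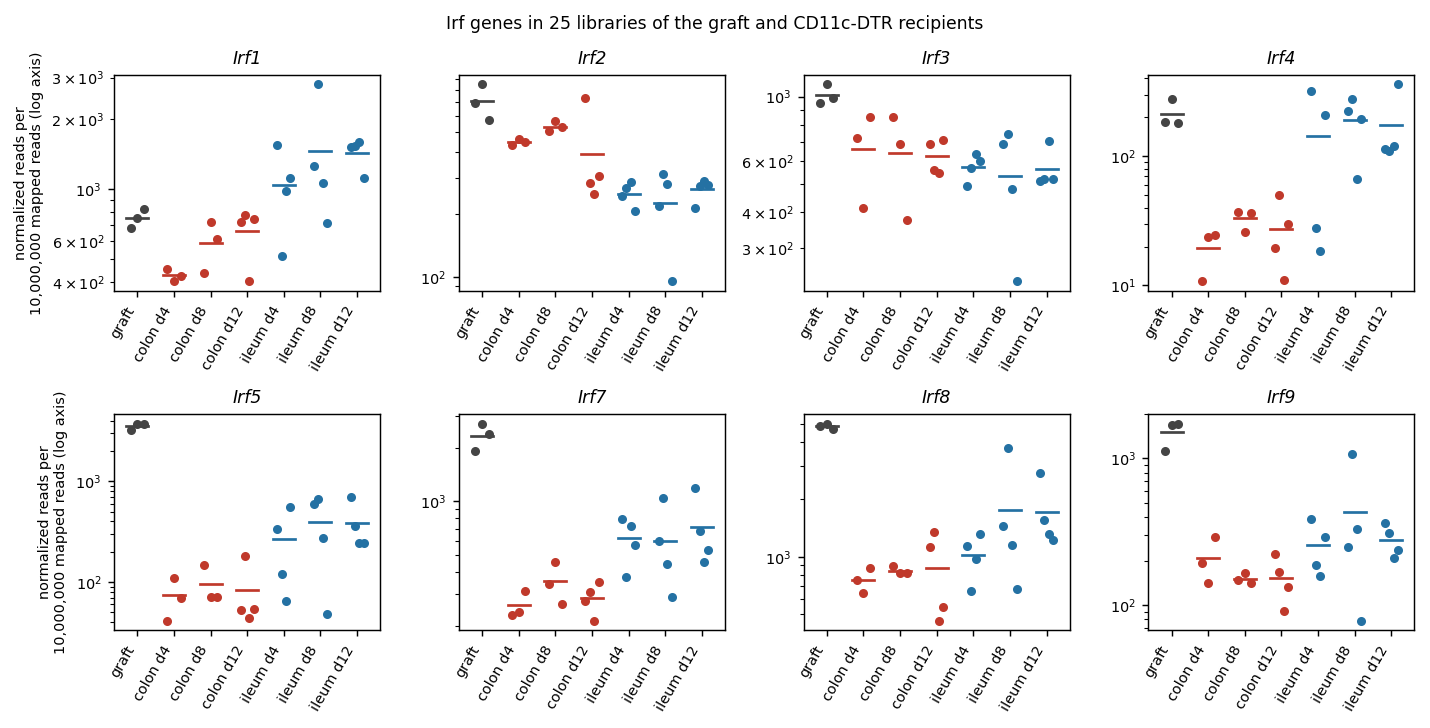
Normalized reads per 10,000,000 mapped reads (log axis) of the 8 Irf genes in the graft (n = 3) and in colon and ileum on days 4, 8 and 12 (n = 3, 3, 4, 4, 4 and 4). Points are libraries and lines are group means. For Irf5, Irf7, Irf8 and Irf9 all 3 graft libraries stand above every engrafted library, for Irf1 the highest values are ileal, and for Irf4 every colon library lies below the graft while the ileum spreads across it.

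These falls stand beside a fall of leukocyte genes, whose median exceeded the fall of most members. Irf5 fell by more than that median in all 6 comparisons, and Irf9 did so in ileum on day 12 (-1.97 against -1.56). All 12 pan-leukocyte genes were called lower in the colon on each day, with medians of -4.39, -4.12 and -4.27, and 11, 10 and 7 of them were lower in the ileum, with medians of -2.49, -2.05 and -1.56. When each library was scaled to its pan-leukocyte reads, the median of all genes moved from near 0 to 4.94, 4.81 and 4.81 in the colon and to 3.05, 2.48 and 2.38 in the ileum. On that scale no member was called lower, 6, 7 and 7 of 8 were called higher in the colon and 5, 3 and 3 in the ileum. Of all 11842 genes, 11334, 11259 and 11379 were called higher in the colon and 10591, 9732 and 9530 in the ileum, with 47 to 116 lower. Irf5 kept a negative log2 fold change on that scale in all 6 comparisons, between -0.90 and -0.54, and was not called in any. The part of leukocyte and epithelial content in these results was not tested.

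**Figure D3:**
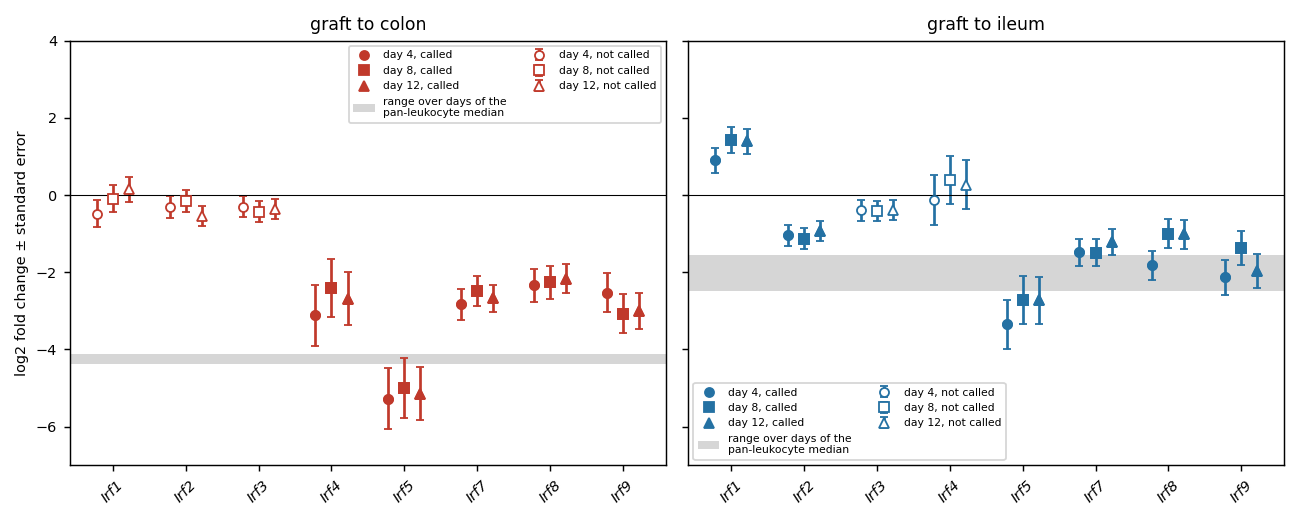
Log2 fold change ± standard error (y axis) of the 8 Irf genes from the graft to colon (left) and to ileum (right) on days 4, 8 and 12. Filled symbols were called and open symbols were not, and the grey band spans the 3 daily medians of 12 pan-leukocyte genes. Irf5 lies below the band in the colon, the other called members of the colon lie between the band and 0, and Irf1 lies above 0 in the ileum.

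Irf8, the lineage factor of monocytes, lies at chr8:123260258-123280592 on the plus strand (mm9). It counted 4865, 4991 and 4672 normalized reads in the 3 graft libraries, 758, 646 and 870 in colon on day 4, 895, 825 and 818 on day 8 and 1123, 1351, 462 and 546 on day 12. In the ileum it counted 1133, 662, 977 and 1312 on day 4, 1456, 3725, 1158 and 673 on day 8 and 2735, 1560, 1316 and 1221 on day 12. Every engrafted library was below the lowest graft library, and the colon and ileum overlapped on each day. The log2 fold change from the graft was -2.34 ± 0.42, -2.26 ± 0.42 and -2.17 ± 0.38 in the colon on days 4, 8 and 12, with adjusted p of 5.23e-05, 7.59e-05 and 3.26e-05 by edgeR. In the ileum it was -1.82 ± 0.38, -1.0 ± 0.38 and -1.02 ± 0.37, with adjusted p of 0.000297, 0.0274 and 0.0246 by edgeR. The calls of ileum days 8 and 12 rested on a narrow margin, since leaving out any of several single libraries ended them, with adjusted p up to 0.0967 and 0.0729 by edgeR. Per 1000 pan-leukocyte reads, Irf8 gave 36.7 to 41.2 reads in the graft, 102.6 to 313.6 in the colon and 51.0 to 107.3 in the ileum, so that on this scale every engrafted library stood above the graft.

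Irf4, the partner of PU.1 that plasma cells also depend on, lies at chr13:30841127-30858796 on the plus strand. It counted 183, 277 and 179 normalized reads in the graft and 10.8 to 49.8 in the 10 colon libraries, which were all below the graft. The ileum held 317, 27.8, 18.4 and 207 on day 4, 222, 276, 66.9 and 194 on day 8 and 113, 109, 120 and 359 on day 12, which covered the range from the colon to above the graft. To the colon, Irf4 had log2 fold changes of -3.12 ± 0.80, -2.40 ± 0.75 and -2.68 ± 0.69, with adjusted p of 0.00176, 0.00808 and 0.00166 by edgeR, on 6 to 31 reads a library. In the ileum its log2 fold change was -0.13 ± 0.65, 0.39 ± 0.63 and 0.27 ± 0.63, and the adjusted p of 0.88, 0.631 and 0.737 by edgeR did not pass. With the experiment as a block the day 8 and day 12 values changed sign without being called.

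Irf4 in the ileum varied with B and plasma cell markers on days 4 and 12 but not in the same order on day 8. Of the 8 genes of that list 7 stand in the tables, and their sum per 10000000 reads on genes was 347 to 384 in the graft, 972 to 14662 in the colon and 6117 to 288715 in the ileum, with Pax5 at 0 in every ileal and graft library. The ileum day 4 libraries with 317 and 207 normalized reads of Irf4 had sums of 288715 and 138131. Replicates 2 and 3, with 27.8 and 18.4 on only 13 and 2 reads of Irf4, had 8060 and 6117. The ileum day 12 library with 359 normalized reads had a sum of 283809, and the 3 others had 35160 to 70175. On day 8 the library with the most Irf4, at 276, had the lowest sum, 29912, and those with 222, 66.9 and 194 had 146831, 32075 and 174823. Over the 22 engrafted libraries the genes most like Irf4 were Mzb1, Derl3 and Ly6d, with Pearson r of 0.98, 0.97 and 0.95 in log2(normalized reads + 50). Mzb1 and Derl3 are secretory pathway genes of plasma cells, and Mzb1 is itself on the list. The points share libraries and depth and fall into a low and a high cluster, so r is a description. The part of B and plasma cells in the Irf4 values was not tested.

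**Figure D4:**
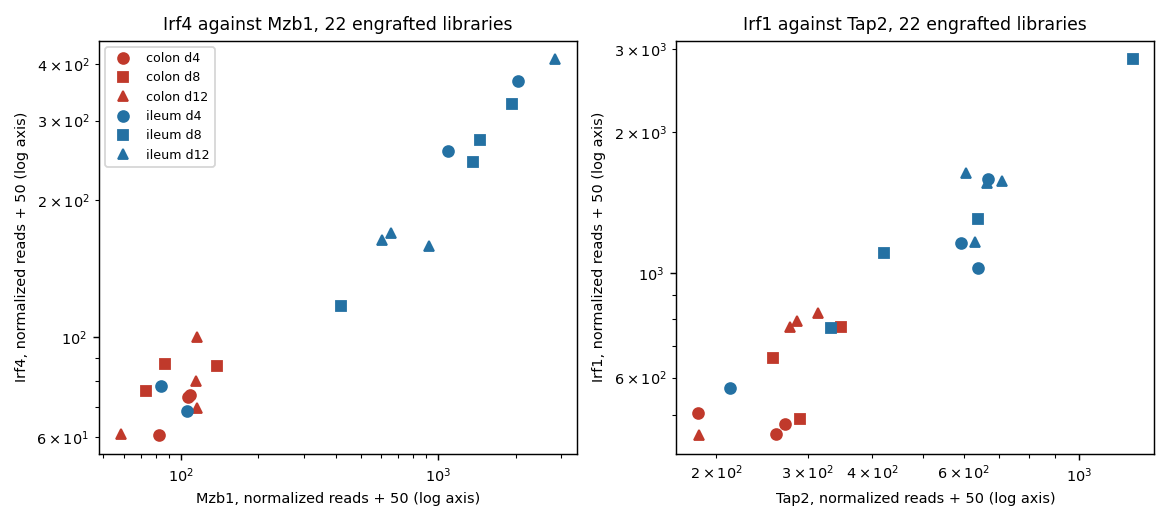
Irf4 against Mzb1 (left) and Irf1 against Tap2 (right) in normalized reads + 50 (log axes), for the 22 engrafted libraries by segment and day. Irf4 rises with Mzb1 over the ileal libraries, with 2 ileum day 4 libraries among the colonic ones, and the library highest for Irf1 is also highest for Tap2.

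Among the factors triggered by sensors, Irf5 showed the largest fall and Irf3 none that passed. Irf5, which acts below Toll-like receptors and MyD88 on inflammatory cytokine genes, lies at chr6:29476625-29487320 on the plus strand. It counted 3265, 3745 and 3756 normalized reads in the graft and 41.2, 110 and 69.1 in colon on day 4, 149, 70.5 and 70.2 on day 8 and 52.6, 181, 43.9 and 54.4 on day 12. In the ileum it counted 334, 120, 64.5 and 556 on day 4, 602, 668, 274 and 47.6 on day 8 and 697, 357, 242 and 246 on day 12. No engrafted library came near the graft. The log2 fold change was -5.28 ± 0.79, -5.00 ± 0.77 and -5.15 ± 0.69 in the colon (adjusted p 4.3e-06, 7.01e-06 and 8.62e-07, edgeR) and -3.35 ± 0.64, -2.72 ± 0.62 and -2.73 ± 0.62 in the ileum (adjusted p 0.000109, 0.000695 and 0.000604, edgeR). Per 1000 pan-leukocyte reads Irf5 gave 27.7 to 29.5 reads in the graft, 12.8 to 26.2 in the colon and 4.83 to 21.7 in the ileum. It was the member of the 8 whose libraries of CD11c-DTR recipients all remained below the graft on this scale, with a CX3CR1-DTR library at 28.5 within its range, although the fit on that scale did not call it.

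Irf7, which amplifies the type I interferon response and is itself induced by interferon, lies on the minus strand at chr7:148449082-148452323. It counted 1906, 2726 and 2385 normalized reads in the graft, 229, 237 and 313 in colon on day 4, 344, 454 and 266 on day 8 and 274, 308, 213 and 351 on day 12. The ileum held 799, 374, 728 and 571 on day 4, 599, 1042, 445 and 289 on day 8 and 1193, 677, 455 and 534 on day 12. The graft did not overlap with either tissue. For Irf7 the log2 fold change was -2.83 ± 0.40, -2.48 ± 0.39 and -2.67 ± 0.35 in the colon (adjusted p 1.9e-06, 9.14e-06 and 7.68e-07, edgeR). It was -1.48 ± 0.35, -1.49 ± 0.34 and -1.22 ± 0.34 in the ileum (adjusted p 0.000901, 0.00083 and 0.00412, edgeR).

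Irf3, the constitutive factor that TBK1 phosphorylates, lies at chr7:52253018-52258218 on the plus strand and varied least between sources. It counted 949, 1103 and 991 normalized reads in the graft, 377 to 851 in the 10 colon libraries and 231 to 742 in the 12 ileal ones. The graft thus stood above all engrafted libraries in reads per mapped read, while the log2 fold changes after TMM scaling were between -0.43 and -0.30 in all 6 comparisons and none was called (adjusted p 0.183 to 0.367, edgeR).

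Among the factors of interferon receptor signalling, Irf9 fell with the group above and Irf1 did not. Irf9, the DNA-binding subunit of ISGF3, lies at chr14:56222822-56228867 on the plus strand. It counted 1126, 1692 and 1727 normalized reads in the graft, 194, 142 and 293 in colon on day 4, 149, 164 and 142 on day 8 and 222, 168, 91.4 and 134 on day 12. In the ileum it counted 386, 188, 157 and 292 on day 4, 249, 1075, 328 and 78.2 on day 8 and 360, 308, 208 and 238 on day 12, with day 8 replicate 2 just below the lowest graft library. The log2 fold change was -2.53 ± 0.50, -3.07 ± 0.51 and -3.00 ± 0.46 in the colon (adjusted p 0.000138, 1.95e-05 and 5.45e-06, edgeR) and -2.13 ± 0.45, -1.38 ± 0.44 and -1.97 ± 0.44 in the ileum (adjusted p 0.000352, 0.0105 and 0.000604, edgeR).

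Irf1, at chr11:53583516-53590826 on the plus strand, was the member that rose in the CD11c-DTR recipients, and it did so in the ileum. It counted 685, 756 and 819 normalized reads in the graft, 454, 406 and 427 in colon on day 4, 439, 720 and 610 on day 8 and 720, 775, 403 and 742 on day 12. The ileum held 1542, 519, 977 and 1113 on day 4, 1255, 2805, 1058 and 717 on day 8 and 1510, 1522, 1586 and 1115 on day 12. All 4 ileum day 12 libraries were above the graft, whereas 1 library of day 4 and 1 of day 8 were not. The log2 fold change to the ileum was 0.90 ± 0.33, 1.43 ± 0.34 and 1.39 ± 0.33 (adjusted p 0.0237, 0.000925 and 0.00111, edgeR). The day 4 call was lost without ileum day 4 replicate 1, without graft replicate 1 or 2, when only the graft and ileum day 4 were fitted and with all 4 colon day 8 libraries in the fit, at values of 0.62 to 0.90 and adjusted p of 0.0529 to 0.115 by edgeR. To the colon the values were -0.48 ± 0.35, -0.10 ± 0.35 and 0.15 ± 0.32 and did not pass (adjusted p 0.239, 0.823 and 0.712, edgeR). On day 4 all 3 colon libraries were below the graft, and with only these groups in the fit Irf1 was called lower (-0.48, adjusted p 0.0354, edgeR).

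Irf2, the antagonist at IRF1 sites, lies at chr8:47825099-47932812 on the plus strand. It counted 693, 849 and 569 normalized reads in the graft, 432 to 564 in colon on days 4 and 8, 728, 283, 252 and 308 in colon on day 12 and 95.2 to 314 in the 12 ileal libraries. The ileum lay below the graft in every library, and in the colon only day 12 replicate 1 reached the range of the graft. To the ileum, Irf2 had log2 fold changes of -1.04 ± 0.27, -1.13 ± 0.27 and -0.93 ± 0.26 (adjusted p 0.00219, 0.00104 and 0.00442, edgeR). In the colon the values were -0.31 ± 0.28, -0.15 ± 0.28 and -0.55 ± 0.26 and did not pass (adjusted p 0.354, 0.673 and 0.0731, edgeR), but without colon day 12 replicate 1 the day 12 value was -0.88 and passed (adjusted p 0.0031, edgeR).

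Promoter sequence is shown for the 3 members with a window that holds an interferon-gamma activated site: Irf1, which rose in the ileum, its antagonist Irf2, which fell there, and Irf8. The 250 bases before each start, on the strand of the gene, were taken from RefSeq (GRCm38.p6, a later build than the mm9 of the counts), which held 11 windows for the 8 members. Motifs were searched on both strands and capitals mark them: the interferon-gamma activated site (TTC, any 3 bases, GAA), the interferon-stimulated response core (GAAA, any 2 bases, GAAA), the ETS-IRF composite (GGAA, any 2 bases, GAAA) and a PU.1 core (GAGGAA).
Irf1 (chr11:53769764-53770013, plus strand): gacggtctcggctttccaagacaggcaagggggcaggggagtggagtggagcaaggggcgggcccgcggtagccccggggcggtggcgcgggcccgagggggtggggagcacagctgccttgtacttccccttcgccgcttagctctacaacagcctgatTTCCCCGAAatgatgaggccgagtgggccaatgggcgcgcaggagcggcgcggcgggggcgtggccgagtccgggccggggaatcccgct
Irf2 (chr8:46739495-46739744, plus strand): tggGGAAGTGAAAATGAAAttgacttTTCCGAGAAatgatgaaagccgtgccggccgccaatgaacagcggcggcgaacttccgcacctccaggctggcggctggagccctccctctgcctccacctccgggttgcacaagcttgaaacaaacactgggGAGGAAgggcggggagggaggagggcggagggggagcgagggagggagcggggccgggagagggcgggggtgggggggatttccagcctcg
Irf8 (chr8:120736108-120736357, plus strand): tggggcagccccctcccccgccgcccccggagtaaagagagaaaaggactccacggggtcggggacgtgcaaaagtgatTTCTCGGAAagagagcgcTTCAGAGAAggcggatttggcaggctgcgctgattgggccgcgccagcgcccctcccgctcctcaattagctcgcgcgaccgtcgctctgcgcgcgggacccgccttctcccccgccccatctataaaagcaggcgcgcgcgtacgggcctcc
The activated site occurred 1 time before Irf1, 1 time before Irf2 and 2 times before Irf8, in windows of which 7.02% of 32851 hold it. Irf1 and Irf8 each have a second window, before another start, which is not shown and held no motif. The response core (2.98% of windows) and the composite (2.3%) occurred before Irf2, where they overlap. The PU.1 core (23.3%) occurred before Irf2, Irf4 and in both windows of Irf9. No motif was found in the windows of Irf3, Irf5 and Irf7. A match describes the letters and not a site in use.

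The order of the means over the 7 groups was the graft first for 7 members, and Irf1 was highest in ileum on day 8. Behind the graft, the ileum preceded the colon for Irf4, Irf5, Irf7, Irf8 and Irf9, and the colon preceded the ileum for Irf2 and Irf3. Neighbouring groups in this order had overlapping libraries throughout, apart from the step from the graft to the next group for Irf2, Irf3, Irf5, Irf7, Irf8 and Irf9 and the step from colon day 8 to colon day 4 for Irf2.

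Time after engraftment was examined next. From day 4 to day 12 no member was called in colon or ileum, where 0% of all genes in the colon and 2.3% in the ileum were called in either direction. At an unadjusted p under 0.05, 0 members passed in the colon and 1 in the ileum, where 245 and 2100 of all 11842 genes did. DESeq2 called 0 members in both, where it called 1 gene in the colon and 656 in the ileum. In the colon, log2 fold changes ran from -0.47 (Irf9) to 0.63 ± 0.33 (Irf1), and in the ileum from 0.02 (Irf3) to 0.80 ± 0.36 (Irf8, adjusted p 0.237, edgeR). The difference of the time courses, tested as an interaction of segment and time, was not called for any member (adjusted p 0.939 to 1, edgeR) nor for any of the 11842 genes. On simulated counts of these depths the test recovered 67% and 74% of genes changed 4-fold and 19% and 25% of genes changed 2-fold in the colon and ileum comparisons, so a change of 2-fold could be missed.

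Colon and ileum were then compared on the same day, without pairing. Some colon and ileum libraries share a date and a number in their titles, but the labels do not say whether they share an animal. On day 4, 3 of 8 members were lower in the colon (Irf1, Irf4 and Irf7), where 2.66% of all genes were lower. On day 8, 6 were lower (Irf1, Irf4, Irf5, Irf7, Irf8 and Irf9) and Irf2 was higher, where 18.3% of all genes were lower and 16.7% higher. On day 12, 5 were lower (Irf1, Irf4, Irf5, Irf7 and Irf8), where 17.2% of all genes were lower. Pan-leukocyte genes moved in the same direction, with 4, 11 and 12 of 12 lower in the colon and medians of -2.06, -2.30 and -2.50.

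Irf1 differed by -1.38 ± 0.34, -1.53 ± 0.34 and -1.25 ± 0.30 on the log2 scale on days 4, 8 and 12 (adjusted p 0.0389, 0.00178 and 0.00351, edgeR). Irf4 differed by -2.99 ± 0.79, -2.79 ± 0.73 and -2.95 ± 0.66 (adjusted p 0.0444, 0.00569 and 0.00208, edgeR), and Irf7 by -1.36 ± 0.37, -0.99 ± 0.36 and -1.45 ± 0.33 (adjusted p 0.0462, 0.0357 and 0.00222, edgeR). On day 12 all 4 colon libraries were below all 4 ileum libraries for each of these 3 genes. Irf5 differed by -2.42 ± 0.62 on day 12 and Irf8 by -1.16 ± 0.36 (adjusted p 0.00469 and 0.0158, edgeR), and for Irf8 the colon and ileum overlapped. The Irf8 call of day 12 was lost without ileum day 12 replicate 1, colon day 12 replicate 3 or colon day 12 replicate 4 (-0.78, -0.97 and -1.02, adjusted p 0.103, 0.0662 and 0.0563, edgeR). Irf3 was nearly level, with values from -0.01 to 0.09.

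The calls of day 4 were weak. Leaving out 1 library changed their number to between 0 and 4, and 0 remained without any one of colon day 4 replicates 1, 2 and 3 or without ileum day 4 replicate 1 or 4. Of the libraries of other groups, which bear on the spread, leaving out any one of graft replicates 1 to 3, colon day 8 replicates 3 and 4 or colon day 12 replicate 4 left 1. On day 8 the count of 7 fell to 4 without ileum day 8 replicate 2, the library highest of its group for all 8 members. Irf7, Irf8 and Irf9 were then at -0.67, -0.70 and -0.83 and lost their calls. The count also fell to 4 without colon day 8 replicate 4. The count of day 8 was also 4 with all 4 colon day 8 libraries, while day 4 then gave 0, and day 4 gave 0 too when its groups were fitted alone. Of all 11842 genes, 1387 were lower and 1635 higher on day 8 with all 4 colon day 8 libraries, and 5 were lower and 2 higher on day 4. With the day 4 groups fitted alone 0 genes were called. The ileum day 4 libraries came from experiments 1 and 2. Epithelial sums were 216780 and 226810 in replicates 2 and 3 (experiment 1), within the CD11c-DTR colon range of 174259 to 259939. In replicates 1 and 4 (experiment 2) they were 60492 and 67376. Pan-leukocyte sums of replicates 2 and 3 were 11969 and 24484, against up to 16719 in that colon. The study describes 2 ileal samples of day 4 that grouped with colonic ones. Whether these are replicates 2 and 3 was not tested. With the 2 ileum day 4 libraries of experiment 2 alone 5 members were called (4 lower and Irf2 higher), where 1540 of all genes were lower and 1529 higher. Experiment 2 holds all 7 groups but a single graft and a single colon day 8 library. Within it, 3 and 2 members were called between colon and ileum on days 4 and 12, where 950 and 906 of all genes were lower and 956 and 958 higher. From its single graft library, Irf1 was higher in the ileum on each day. Experiments 1 and 3 lack some groups. Scaled to pan-leukocyte reads, 4, 4 and 5 members were called higher in the colon and none lower. This scale called 9052, 9182 and 9860 of all 11842 genes higher on days 4, 8 and 12, and 24 to 125 lower.

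The pathway around the IRFs was described from lists of genes. Among all genes tested, 24.5% were called lower and 35.9% higher to colon day 4, and 20.5% lower and 36.2% higher to ileum day 4. Of 10 interferon receptors and signal transducers, 7 fell to colon day 4 and none rose, with Ifnar2 at -3.06 and Tyk2 at -2.29 among them, and 3 fell to ileum day 4. Of the 16 tested sensors, adaptors and kinases upstream of IRF3, IRF5 and IRF7, 7 fell to colon day 4, led by the cytosolic DNA sensor Mb21d1 at -2.77, and 1 rose, the double-stranded RNA receptor Tlr3 at 3.91. In the ileum 4 fell and 2 rose on that day, with Tlr3 at 4.1. Of 7 partners of IRF4 and IRF8, 4 fell to colon day 4 (Ikzf1 at -5.15 and Spi1, which encodes PU.1, at -3.81 among them) and Batf2, a partner induced in macrophages by interferon, rose by 3.69. The same count was met in the ileum, with Ikzf1 at -2.66, Spi1 at -2.0 and Batf2 at 3.43. Of 8 cofactors and feedback inhibitors, 4 fell and 2 rose in both tissues, with Usp18, which restrains the type I receptor, at -3.23 in colon and Socs3 at 2.49 in colon and 2.98 in ileum.

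Target genes of the IRFs were lower in colon than in ileum on days 8 and 12, while on day 4 this held for 0 of 11 tested interferon and ISGF3 targets (median -1.65) and 3 of 10 IRF1 targets (median -1.66). From the graft, 5 of the former fell to colon day 4 and 1 rose, 5 fell and 2 rose to colon day 12, 3 rose and 2 fell to ileum day 4, and 5 rose and 1 fell to ileum day 12, with Mx1 at -2.87, Cxcl10 at 4.09 and Ifi44 at 5.53. On days 8 and 12, 7 and 10 of these 11 were lower in colon than in ileum, with medians of -1.50 and -2.05, where the medians over all genes were -0.05 and -0.01. Of 10 IRF1 targets of antigen presentation, 6 fell to colon day 4 and none rose, while to ileum day 12, 4 rose (Cd274, which encodes PD-L1, at 5.00, Ciita at 2.6 and Gbp2 at 2.06 among them) and none fell. All 10 were lower in colon than in ileum on days 8 and 12, with medians of -1.87 and -1.96, close to the pan-leukocyte medians of -2.30 and -2.50 on these days. Ifnb1, which encodes interferon-beta, was at 0 in every library. Among all genes tested, 2.66%, 18.3% and 17.2% were called lower in colon than in ileum on days 4, 8 and 12. To colon day 12, 24.9% were lower than in the graft and 37.7% higher, and to ileum day 12, 20% were lower and 35.9% higher.

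The likeness of other genes to each member was taken over the 25 libraries, as Pearson r in log2(normalized reads + 50) among 7812 genes. The closest to Irf5 were Myo1f, Evi2b and Gm21975 at 0.99 each, and the same 3 genes led over the 22 engrafted libraries. For Irf8 they were Crlf3, Mapkapk2 and Psap (0.96, 0.96 and 0.95) and for Irf7 Aldh3b1, B3gnt8 and Zeb2os (0.97, 0.96 and 0.96). For Irf9 they included Ankfy1 and 5031439G07Rik (0.95 each), and they were for Irf4 Mef2c, Psmb8 and H2-T10 (0.92, 0.92 and 0.90), for Irf2 Arhgef11, Prelid1 and Zdhhc12 (0.90 each) and for Irf3 Eya3, Sphk2 and E2f4 (0.88, 0.86 and 0.85). For Irf1 they were Il4ra, Slc28a2 and Pla2g7 (0.91, 0.91 and 0.89), and over the 22 engrafted libraries Tap2, Tap1 and Il4ra (0.94, 0.93 and 0.92), of which Tap1 and Tap2 form the peptide transporter of antigen presentation and stood on the list of IRF1 targets. All of these values share the libraries, their depth and their leukocyte and epithelial content.

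A last comparison set the colon of CX3CR1-DTR recipients on day 14 beside the graft and the CD11c-DTR colon on day 12. These libraries were sequenced in another run and counted in another table, so that recipient, day and run cannot be told apart, and levels here are per 10000000 reads on genes. Irf4, Irf5, Irf7 and Irf8 were lower than in the graft and Irf1 was higher, where 36% of all 11718 genes were called lower and 39.5% higher. Against the CD11c-DTR colon, Irf1, Irf3, Irf7 and Irf9 were higher and none was lower, where 25.2% of all genes were called higher and 35.4% lower.

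Irf1 counted 997, 1072 and 1190 normalized reads in the graft, 1054, 1316, 719 and 1319 in the CD11c-DTR colon and 1878 to 4159 (median 2450) in the 6 CX3CR1-DTR libraries, which stood above both other groups. The log2 fold change was 1.60 ± 0.27 from the graft and 1.27 ± 0.24 from the CD11c-DTR colon (adjusted p 8.17e-05 and 0.000328, edgeR). Irf5 counted 4751, 5311 and 5461 in the graft and 24.5 to 129 (median 99.6) in the CX3CR1-DTR colon, at -5.45 ± 0.43 (adjusted p 3.71e-08, edgeR), and did not differ detectably from the CD11c-DTR colon (-0.49 ± 0.41, adjusted p 0.317, edgeR). The row of Irf5 rests on another transcript in the second table, with another start and the same end.

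Irf7 counted 443 to 984 (median 797) in the CX3CR1-DTR colon against 402, 523, 380 and 624 in the CD11c-DTR colon, which overlapped, and was higher by 0.63 ± 0.22 (adjusted p 0.0222, edgeR), a call that was lost without CD11c-DTR colon day 12 replicate 1 or 3 (0.53 and 0.55, adjusted p 0.0737 and 0.0715, edgeR). Irf3 counted 1226 to 1744 (median 1587) against 1009, 946, 973 and 1257 and was higher by 0.50 ± 0.16 (adjusted p 0.014, edgeR). Irf8 counted 1324 to 1810 (median 1580), at -1.86 ± 0.24 from the graft (adjusted p 7.13e-06, edgeR) and 0.12 ± 0.23 from the CD11c-DTR colon, which was not called.

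**Figure D5:**
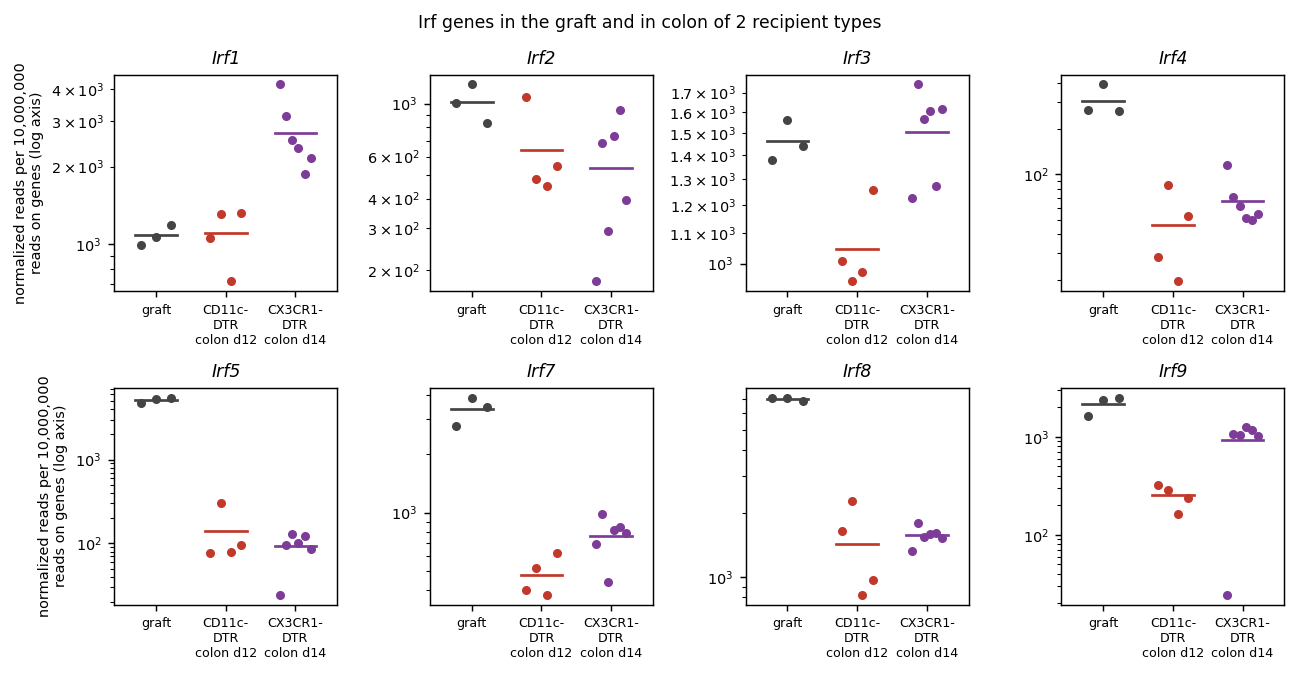
Normalized reads per 10,000,000 reads on genes (log axis) of the 8 Irf genes in the graft (n = 3), the CD11c-DTR colon on day 12 (n = 4) and the CX3CR1-DTR colon on day 14 (n = 6). Points are libraries and lines are means. Irf1 is highest in the CX3CR1-DTR colon, and 1 CX3CR1-DTR library lies apart for Irf9.

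Irf9 showed a library that stood apart. It counted 24.5 normalized reads (3 reads) in CX3CR1-DTR replicate 1 and 1067, 1036, 1253, 1183 and 1029 in the other 5, against 325, 285, 163 and 237 in the CD11c-DTR colon. The difference from the CD11c-DTR colon was 1.88 ± 0.58 (adjusted p 0.011, edgeR) and that from the graft -0.93 ± 0.56 (adjusted p 0.147, edgeR), and without replicate 1 the latter was -0.79 and passed (adjusted p 0.00246, edgeR). The difference of Irf9 from the CD11c-DTR colon was 2.17 without this library (adjusted p 5.49e-07, edgeR), Irf1 was at 1.13 and Irf7 at 0.69 (adjusted p 7.89e-05 and 0.0139, edgeR), and the other calls of the CX3CR1-DTR colon held too. The same library held 3 reads of Irf5, 22 of Irf2 and the most Irf1 and Irf4 of its group. In the CX3CR1-DTR colon interferon targets were low, with 8 of 10 tested below the CD11c-DTR colon (35.4% of all genes) and a median of -1.95, and of the IRF1 targets 4 of 10 were lower and 2 higher, with B2m at -4.39, Gbp2 at -4.09 and Tap2 at 0.88. Pan-leukocyte genes were 4 of 12 lower than in the CD11c-DTR colon, with a median of -0.46. Scaled to pan-leukocyte reads, 7 members were higher and none lower than in the graft, with Irf5 at -0.50 and not called (adjusted p 0.34, edgeR). On that scale 10150 of all 11718 genes were higher than in the graft and 296 lower.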

How the data were processed

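Gene expression was measured by a derivation of MARS-seq, a 3' protocol. The authors mapped reads to mm9 with HISAT 0.1.6 and counted them on exons with HOMER by strand, and the deposited values are raw counts per gene with no normalization. Libraries held 591817 to 5228664 reads on genes (CD11c-DTR and graft) and 1223772 to 4218027 (CX3CR1-DTR), which limits low genes most. The second table held 52 columns that match no sample here, and they were not used.

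Genes that reached 50 normalized reads in 3 or more libraries were tested with edgeR 4.0.16 (R 4.3.3, TMM, quasi-likelihood test), in 1 fit of 25 libraries and 7 groups (11842 genes) and 1 of 13 libraries and 3 groups (11718 genes). A call is a Benjamini-Hochberg adjusted p under 0.05, two-sided, over all genes of the fit, and ± beside a log2 fold change is its standard error, the fold change divided by the root of F. Normalized reads are per 10000000 mapped reads, or reads on genes in the comparisons with CX3CR1-DTR recipients. Of 4 colon day 8 libraries 3 were used, as in the study, and DESeq2 1.42.0 and the other alternatives are given in the closing section.

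The members and lists were chosen with earlier results of these data known. Named were all 8 members in every comparison, from each list the called genes with the largest change in each direction (at most 3), and the 3 genes most like each member among those whose mean reached 200 normalized reads in 1 group. Dates in the labels gave 3 experiments, of which 1 date was read as a slip of a year. Libraries of the same experiment did not deviate together (median r of deviations from group means 0.02 over 96 pairs, and -0.01 over 171 pairs of other experiments). None of 51 pairs of replicates was a duplicate (chi-square over degrees of freedom 5.21 or more). Some genes of the lists are not reported here by name. The tests were tested on simulated data.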

Additional observations from a re-analysis of the deposited data

Results flagged for a closer look

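Among 40 groups of 4 to 6 libraries tested, 8 held a library far from the others by Dixon's criterion, where chance gives about 1 in 20. In ileum on day 12, Irf1 was lowest in replicate 4 at 1115 normalized reads (next 1510), Irf3 highest in replicate 3 at 705 (next 522) and Irf4 highest in replicate 4 at 359 (next 120). In colon on day 12, Irf1 was lowest in replicate 3 at 403 (next 720), Irf2 highest in replicate 1 at 728 (next 308) and Irf5 highest in replicate 2 at 181 (next 54.4). In CX3CR1-DTR replicate 1, Irf4 was highest at 114 (next 70.3) and Irf9 lowest at 24.5 (next 1029).

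The fall or rise from the same graft differed between colon and ileum, by the test of colon against ileum, for 3, 7 and 5 members on days 4, 8 and 12. The log2 differences on days 4, 8 and 12 were -1.38, -1.53 and -1.25 for Irf1, -2.99, -2.79 and -2.95 for Irf4 and -1.36, -0.99 and -1.45 for Irf7. On days 8 and 12 they were -2.29 and -2.42 for Irf5 and -1.26 and -1.16 for Irf8. On day 8 alone they were 0.98 for Irf2 and -1.69 for Irf9.

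In the colon day 8 library that was not used, Irf1 counted 1174 normalized reads, above the highest graft library at 819. Its sum of pan-leukocyte genes was 56709 per 10000000 reads on genes.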

How the results depend on the processing

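Beside the values that follow, calls and directions held under DESeq2, no filter and library totals for most members, and leaving out 1 library kept 2305 of 2408 member values, with 64 weaker, 6 stronger and 33 of the other sign; the cause was not tested in any case. Without 1 library, members called ran from 0 to 4 for colon against ileum on day 4 and 4 to 7 on day 8. Scaled to pan-leukocyte genes, 3 members were called from graft to ileum on days 8 and 12 and 4 for colon against ileum on day 8. All of these were higher, where 9732, 9530 and 9182 of 11842 genes were called higher. Experiment 2 alone gave 2 for colon against ileum on day 12, where 906 of all genes were lower and 958 higher. Colon against ileum on day 4 gave 0 with only the groups compared or all 4 colon day 8 libraries and 5 with ileum day 4 of experiment 2 alone, and all 4 colon day 8 libraries gave 4 on day 8. Of all genes, 0 were called on day 4 with only the groups compared, and 5 were lower and 2 higher with all 4 colon day 8 libraries. With ileum day 4 of experiment 2 alone, 1540 were lower and 1529 higher. With the experiment as a replicate block no call changed, and 85 of 88 member values kept their direction, the others being Irf4 from graft to ileum on days 8 and 12 (-0.18 and -0.02) and Irf3 on day 8 (0.01 for colon against ileum).

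Values that changed sign under pan-leukocyte scaling were, from graft to colon day 4, Irf1 4.27, Irf2 4.39, Irf3 4.50, Irf4 1.44, Irf7 1.86, Irf8 2.40 and Irf9 2.21. To colon day 8 they were Irf1 4.60, Irf2 4.49, Irf3 4.01, Irf4 2.21, Irf7 2.10, Irf8 2.35 and Irf9 1.56, and to colon day 12 Irf2 4.09, Irf3 4.27, Irf4 1.71, Irf7 1.89, Irf8 2.24 and Irf9 1.56. To ileum day 4 they were Irf2 1.82, Irf3 2.43, Irf4 2.17, Irf7 1.19, Irf8 0.83 and Irf9 0.53, to day 8 Irf2 0.99, Irf3 1.66, Irf7 0.62, Irf8 1.01 and Irf9 0.50, and to day 12 Irf2 1.29, Irf3 1.85, Irf7 0.71, Irf8 0.95 and Irf9 0.10. Over time they were Irf5 -0.11 and Irf8 -0.16 in colon and Irf2 -0.53, Irf3 -0.59, Irf7 -0.48 and Irf9 -0.44 in ileum. For colon against ileum they were Irf1 0.79, Irf5 0.14, Irf7 0.67, Irf8 1.57 and Irf9 1.68 on day 4, Irf1 1.06, Irf3 2.35, Irf5 0.34, Irf7 1.49, Irf8 1.34 and Irf9 1.06 on day 8 and Irf1 1.11, Irf7 1.18, Irf8 1.30 and Irf9 1.46 on day 12. For CX3CR1-DTR colon they were Irf2 4.34, Irf4 2.91, Irf7 3.10, Irf8 3.10 and Irf9 4.13 from the graft and Irf2 0.25 and Irf5 0.37 from CD11c-DTR colon. This scaling moved the median of all genes by 2.38 to 5.06 from the graft.

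Irf3 in colon against ileum on day 8 was 0.00 with DESeq2 and with all 4 colon day 8 libraries, 0.01 with library totals and with only the groups compared, 0.03 with no filter and 0.26 in experiment 2 alone, where day 12 was -0.20. Experiment 2 alone also turned Irf3 from graft to colon days 4 and 8 (0.02 and 0.12), Irf4 to ileum days 4 and 12 (1.00 and -0.12), and Irf4 and Irf9 over time in ileum (-1.12 and -0.17). With ileum day 4 of experiment 2 alone, Irf4 to ileum day 4 was 0.72, and Irf4, Irf5 and Irf9 over time in ileum were -0.45, -0.07 and -0.22. Irf3 over time in ileum was -0.06 with library totals, and Irf1 to colon day 8 was 0.38 with all 4 colon day 8 libraries.

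Without 1 library, Irf1 to colon day 8 ran from -0.24 to 0.09 and Irf2 to colon day 8 from -0.26 to 0.00, Irf4 to ileum day 4 from -1.06 to 0.27 and to day 12 from -0.47 to 0.50. For colon against ileum Irf3 ran from -0.12 to 0.29, -0.25 to 0.24 and -0.08 to 0.11 on days 4, 8 and 12. Over time in colon Irf3 ran from -0.25 to 0.17, Irf5 from -0.51 to 0.59, Irf7 from -0.01 to 0.30 and Irf8 from -0.13 to 0.35, and in ileum Irf2 from 0.00 to 0.22, Irf3 from -0.06 to 0.13, Irf4 from -0.35 to 1.33, Irf7 from -0.16 to 0.44 and Irf9 from -0.03 to 0.47. From CD11c-DTR to CX3CR1-DTR colon Irf2 ran from -0.47 to 0.09, Irf5 from -0.72 to 0.17 and Irf8 from -0.05 to 0.45. Depth limits Irf4 most, at 6 to 31 reads a colon library and 2 reads in ileum day 4 replicate 3.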
